A study of Homo sapiens with 4 samples.

Results

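Homologous recombination (HR) and Fanconi anaemia genes were compared between RPE-1 cells exposed to merbarone for 4 h and for 8 h. The genes were chosen by name, as 37 genes of these pathways that could be found by NCBI symbol and had a CPM (counts scaled by the total of each library, where 1 CPM stood for 8.06 to 10.3 reads) above 1 in at least 2 libraries. All 37 passed, out of 12559 retained genes and 23459 listed ones. The lowest CPM of any of them in any library was 2.60, for RAD51B, so none lay close to the threshold. RPE-1 is a human epithelial line from the retinal pigment epithelium, wild type and immortalized with telomerase (hTERT). The cells were serum starved for 48 h in 0.1% FBS, which the study describes as an arrest in G0/G1. They were then treated with 200 μM merbarone, a drug that blocks the catalytic cycle of type II DNA topoisomerases (TOP2). Each group held 2 libraries. Untreated cells were not analysed here, so every comparison is 8 h against 4 h of exposure, and time in merbarone cannot be told apart from time in low serum.

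HR repairs double-strand breaks by copying the sister chromatid, and it is used mainly in S and G2, when a sister is present. The broken ends are first cut back by nucleases, BRCA proteins then load a recombinase on the single strand, motor proteins help it to pair with the sister, and the joined molecules are finally dissolved or cut apart. The Fanconi pathway detects crosslinks at stalled forks, attaches ubiquitin to the FANCD2 and FANCI pair, and hands the damage to nucleases and to HR. Many of these genes are transcribed most strongly in proliferating cells. A fall of such a transcript in a culture can come from fewer cells that express it or from less RNA per cell, and bulk RNA cannot tell these apart.

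Libraries held between 8064450 and 10324697 counted reads. Replicates were separate samples by their labels, and p-values measure the spread between these samples. Of the retinal pigment epithelium markers checked, the keratins KRT8 and KRT18 and the transcription factors MITF and OTX2 were expressed (KRT8 had between 3334 and 3780 normalized counts, and KRT18 fell by 0.51 on the log2 scale). PMEL and SERPINF1 also passed the filter, at low counts, and of the 6 retained markers 5 had a log2FC above 0 without passing the test. RPE65, RLBP1, BEST1, TYR and TTR did not pass the CPM filter, with 7 reads or fewer in any library, and TYR was at 0 in all 4. None of the 6 markers of blood, endothelium or photoreceptors passed the filter.

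Most of the genes were lower at 8 h. Of the 37 genes, 28 were lower at 8 h with an adjusted p below 0.05 (edgeR quasi-likelihood test, Benjamini-Hochberg over all 12559 genes), which is 75.7%, against 18.8% of all retained genes. None was higher with an adjusted p below 0.05 in edgeR, Limma-Voom or DESeq2, and none was higher at an unadjusted p below 0.05 in edgeR, while 19.9% of all retained genes were called higher. The log2 fold change (log2FC) was below 0 for 35 genes, as it was for 50.2% of all retained genes, and above 0 for 2, RAD52 and PALB2. The median log2FC was −0.87, against 0.00 for all retained genes. Since the list was made with earlier results of these data known, these contrasts only describe it. Summed over the 37 genes, the normalized counts were 10393 and 10056 at 4 h, then 6365 and 6041 at 8 h. In 33 genes both 8 h libraries lay below both 4 h libraries, which held for 34.9% of all retained genes. The standard errors of log2FC ran from 0.09 to 0.31, with a median of 0.18.

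Of the 28 genes, 14 were DEGs by the study's thresholds (adjusted p below 0.05 and an absolute log2FC above 1), where 3.88% of all retained genes were DEGs lower at 8 h. None was a DEG higher at 8 h, as 1.45% of all retained genes were. They were BLM, UBE2T, RAD54L, FANCL, EXO1, BRCA1, EME1, FANCC, BARD1, XRCC2, BRCA2, FANCD2, RAD54B and FANCA, in order of size from −1.84 to −1.01. Just outside the fold threshold lay RAD51AP1 (−0.99) and FANCI (−0.97). These DEGs come from every step of the pathway, with 1 from end resection, 3 from the BRCA complexes, 1 from the recombinase paralogs, 2 from the motor proteins and their partners, 4 from the Fanconi core complex and its E2 enzyme, and 1 each from the ID2 pair, the dissolution complex and the nucleases. The 9 genes that did not pass the test were RBBP8, PALB2, RAD51B, RAD52, FANCB, FANCE, FANCM, MUS81 and SLX4. None of them was among the listed motor proteins, ID2 pair or dissolution genes.

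**Figure D1:**
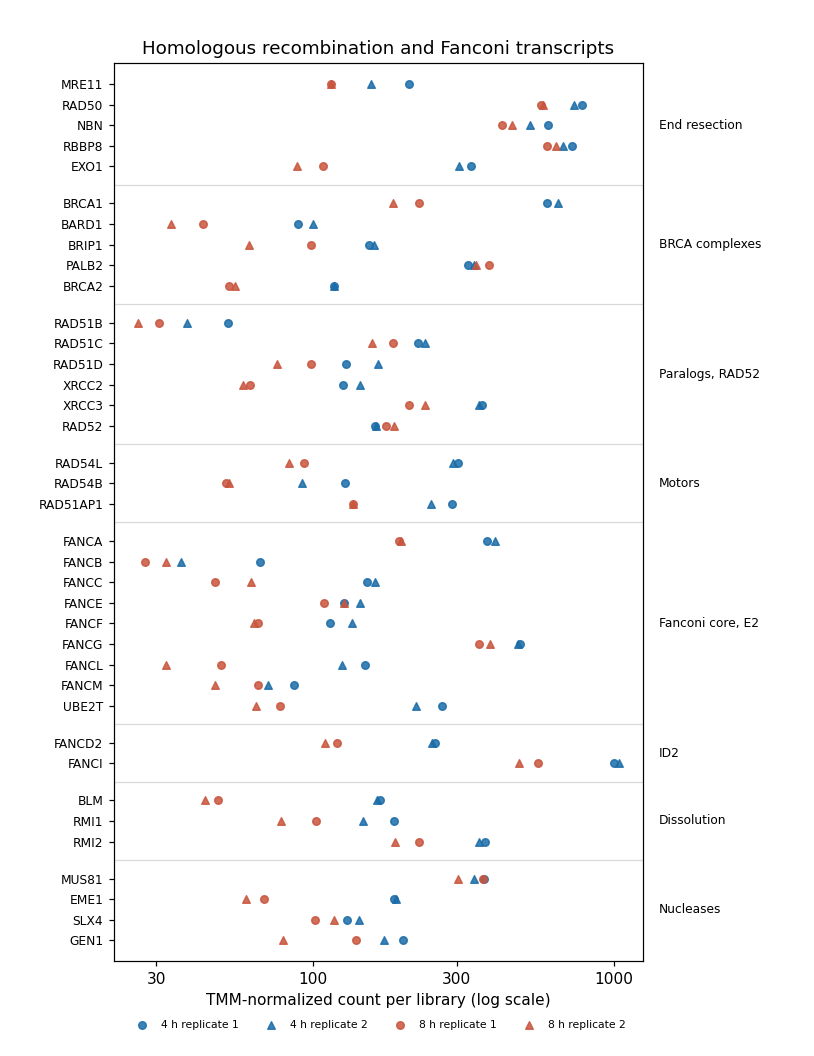
TMM-normalized counts (x axis, log scale) of the 37 genes in each library, grouped by role; circles are replicate 1 and triangles replicate 2, blue at 4 h and red at 8 h. Red points lie to the left of blue ones in 33 genes, while PALB2 and RAD52 have both 8 h libraries on the right.

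**Figure D2:**
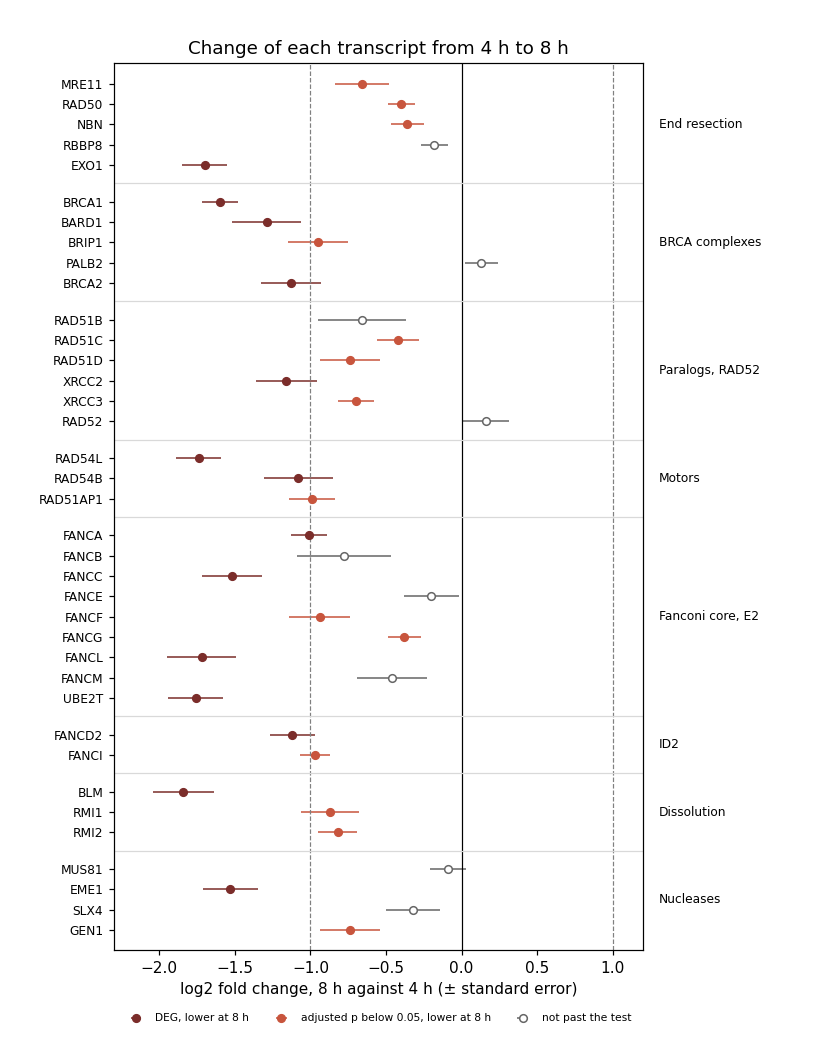
Log2FC of each gene (x axis, 8 h against 4 h, bars are ± 1 standard error of the edgeR fit on 2 libraries per time), grouped by role; dark points are DEGs, light red points have an adjusted p below 0.05, open points did not pass, and dashed lines mark an absolute log2FC of 1. BLM lies farthest left, at −1.84, and no gene reaches past 0.16 on the right.

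Promoter letters are shown for 5 genes that moved to different degrees, as the stretch of 250 bases before the RefSeq start of the gene. In each of them no more than 6 bases of the stretch lay in an exon of a coding gene. RBBP8, RAD51C and FANCM also met this limit and are not shown. The 5 genes include a Fanconi core pair that parted (FANCC and FANCE). Letters come from the RefSeq table on GRCh38.p14, and each stretch matched GRCh37 exactly once, at the position given. Capitals mark E2F letters (TTTCCCGC, TTTCGCGC, TTTGCCGC or TTTGGCGC, with or without the first T) and CHR letters (TTTGAA or TTTAAA), on either strand. E2F factors bind genes of S phase, and CHR elements are found in genes of G2 and mitosis.
FANCC, chr9:98079992-98080241, minus strand: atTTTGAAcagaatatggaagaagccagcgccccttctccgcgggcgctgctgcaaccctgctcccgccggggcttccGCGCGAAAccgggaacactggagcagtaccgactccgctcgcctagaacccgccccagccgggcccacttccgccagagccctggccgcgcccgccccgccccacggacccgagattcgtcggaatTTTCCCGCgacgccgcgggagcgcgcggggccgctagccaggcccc
BLM, chr15:91260327-91260576, plus strand: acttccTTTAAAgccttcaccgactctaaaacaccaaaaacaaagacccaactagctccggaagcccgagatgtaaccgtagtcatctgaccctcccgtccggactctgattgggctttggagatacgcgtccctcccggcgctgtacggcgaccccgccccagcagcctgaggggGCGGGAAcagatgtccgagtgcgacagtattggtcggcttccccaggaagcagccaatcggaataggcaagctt
BARD1, chr2:215674408-215674657, minus strand: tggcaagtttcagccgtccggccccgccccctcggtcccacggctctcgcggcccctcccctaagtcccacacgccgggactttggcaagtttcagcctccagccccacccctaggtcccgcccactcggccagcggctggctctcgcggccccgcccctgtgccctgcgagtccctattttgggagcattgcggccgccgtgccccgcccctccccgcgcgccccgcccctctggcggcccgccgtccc
FANCE, chr6:35419865-35420114, plus strand: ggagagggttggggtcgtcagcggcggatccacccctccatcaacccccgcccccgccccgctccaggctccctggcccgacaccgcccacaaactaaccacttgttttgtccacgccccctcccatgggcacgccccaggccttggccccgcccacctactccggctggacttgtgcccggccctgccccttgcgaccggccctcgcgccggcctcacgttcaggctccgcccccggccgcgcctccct
RAD52, chr12:1058861-1059110, minus strand: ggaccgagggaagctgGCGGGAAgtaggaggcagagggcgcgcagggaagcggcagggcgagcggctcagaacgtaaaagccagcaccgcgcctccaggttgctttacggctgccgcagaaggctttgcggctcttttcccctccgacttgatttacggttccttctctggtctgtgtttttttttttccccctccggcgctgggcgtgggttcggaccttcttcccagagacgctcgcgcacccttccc
FANCC held E2F letters at 2 places, the nearer one starting 46 bases before the start with all 8 letters, and CHR letters 248 bases before it. BLM held 7 E2F letters 74 bases before the start and CHR letters 244 bases before it. BARD1, which was a DEG, and FANCE, which did not pass the test, held neither kind. RAD52, which also did not pass, held 7 E2F letters 234 bases before its start. Of the genes not shown, RAD51C, which fell, and RBBP8 and FANCM, which did not pass, held neither kind. Such matches describe the letters only.

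The promoter table had an entry for 33 of the 37 genes, 24 that fell and 9 that did not pass the test. The E2F forms of 8 letters were present in 2 of the 33 (6.06%), FANCA and FANCC, against 4.63% of the 10183 retained genes with an entry and 2.79% of all 27305 promoters. The forms of 7 letters, searched after the longer ones had been counted, were in 10 of 33 (30.3%), against 17.9% of the retained genes and 11.0% of all promoters. Of these 10, 9 were among the 24 genes that fell (RAD54L, FANCL, FANCG, FANCC, RAD51AP1, BLM, FANCA, RAD51D and EME1) and RAD52 was among the 9 that did not pass. CHR letters were in 5 of 33 (15.2%), with 14.1% of the retained genes and 22.1% of all promoters. The CCAAT box was in 13 of 33 (39.4%), with 35.3% and 33.0%. TGACGTCA, the letters bound by CREB and ATF factors, was in 2 of 33 (6.06%), with 2.97% and 1.77%. With 33 promoters these shares rest on few genes, and the stretch stops at 1 annotated start per gene. For BRCA1 that start lies far upstream, within exons of NBR1, so its usual promoter was not searched. Some other stretches, such as those of RAD51B, RBBP8, MUS81, FANCC and RAD52, lay inside the annotated gene, so an earlier start was not searched. RAD51B was among the 5 genes with CHR letters.

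Of the 5 end resection genes, 4 fell and RBBP8 did not pass the test. EXO1, the exonuclease that carries out long-range resection, had 334 and 305 normalized counts at 4 h, then 107 and 88.2 at 8 h. Its groups stood far apart, and EXO1 fell by 1.70 on the log2 scale (standard error 0.15, edgeR adjusted p = 8.12e-08). RBBP8, which encodes CtIP, the factor that starts resection, had 727 and 674 at 4 h, then 597 and 641 at 8 h. Both 8 h libraries were below the 4 h ones, but the log2FC of −0.18 (standard error 0.09) did not pass (edgeR adjusted p = 0.14). With library size in place of TMM it did, at −0.29 and an adjusted p of 0.0204 in edgeR. The MRN complex holds the ends and senses the break. RAD50, its ATPase, had 783 and 738 counts at 4 h, then 571 and 581 at 8 h (log2FC −0.40, edgeR adjusted p = 0.00193). NBN, which recruits the checkpoint kinase ATM, fell by a similar amount (log2FC −0.36, standard error 0.11, edgeR adjusted p = 0.011), and MRE11, the nuclease, by 0.66 on the log2 scale (standard error 0.18, edgeR adjusted p = 0.00579). NBN and MRE11 did not pass without replicate 1 of 4 h, at −0.27 and −0.45 (edgeR adjusted p = 0.17 and 0.156), and NBN also missed the threshold with DESeq2 (adjusted p = 0.0512).

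In the BRCA complexes, BRCA1 fell to 33.0% of its 4 h level. BRCA1, a ubiquitin ligase that promotes resection and recombinase loading, had 596 and 652 normalized counts at 4 h, then 225 and 184 at 8 h. Its log2FC was −1.60 (standard error 0.12, edgeR adjusted p = 8.48e-09), the smallest adjusted p of the 37 genes. BARD1, the partner without which BRCA1 is unstable, had 88.8 and 99.7 at 4 h, then 43.0 and 33.5 at 8 h (log2FC −1.29, standard error 0.23, edgeR adjusted p = 0.000235). BRCA2, which delivers the recombinase to DNA, went from 117 in both 4 h libraries to 52.2 and 54.7. The replicates nearly coincided and the log2FC was −1.13 (standard error 0.20, edgeR adjusted p = 0.00023). BRIP1, the helicase bound by BRCA1, fell by 0.95 on the log2 scale (edgeR adjusted p = 0.00103), with its 8 h libraries far from each other, at 98.2 and 60.9. PALB2, the bridge between BRCA1 and BRCA2, did not follow them. It had 328 and 341 at 4 h, then 385 and 348 at 8 h, a small difference of 0.13 in log2FC (standard error 0.11, edgeR adjusted p = 0.37).

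The paralogs of the recombinase stabilize its filament and act in a complex of RAD51B, RAD51C, RAD51D and XRCC2 and in one of RAD51C and XRCC3. XRCC2 was the DEG among them, with 126 and 143 normalized counts at 4 h, then 61.4 and 58.4 at 8 h (log2FC −1.16, standard error 0.20, edgeR adjusted p = 0.000126). XRCC3, which had the highest level per length of them, had 364 and 354 at 4 h, then 208 and 235 at 8 h (log2FC −0.70, standard error 0.12, edgeR adjusted p = 0.000181). The smaller falls were less certain. RAD51D fell by 0.74 on the log2 scale (edgeR adjusted p = 0.00562) but did not pass without replicate 2 of 4 h (−0.55, edgeR adjusted p = 0.119). RAD51C fell by 0.42 (edgeR adjusted p = 0.026) and did not pass without either 4 h library or without replicate 2 of 8 h, with edgeR adjusted p from 0.0828 to 0.162. It also missed with DESeq2 (adjusted p = 0.114) and with the trend correction (edgeR adjusted p = 0.0717). RAD51B, with 26.1 to 52.0 normalized counts in the 4 libraries, had a log2FC of −0.66 (standard error 0.29) and did not pass (edgeR adjusted p = 0.0836). RAD52, which anneals single strands and can work where BRCA2 is missing, had 161 in each 4 h library, then 175 and 185 at 8 h. RAD52 did not pass, at 0.16 (standard error 0.15, edgeR adjusted p = 0.427).

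The motor proteins and their partners all fell. RAD54L, the ATPase that drives strand invasion, had 302 and 291 normalized counts at 4 h, then 93.1 and 83.2 at 8 h (log2FC −1.74, standard error 0.15, edgeR adjusted p = 6.19e-08). RAD54B, its relative, had 127 and 91.6 at 4 h, then 51.1 and 52.2 at 8 h (log2FC −1.08, standard error 0.23, edgeR adjusted p = 0.000824). Both 8 h libraries of RAD54B lay well below the 4 h ones, which differed from each other, and without replicate 1 of 4 h its log2FC was −0.83. RAD51AP1, which stimulates strand pairing, had 290 and 246 at 4 h, then 135 in each 8 h library (log2FC −0.99, standard error 0.15, edgeR adjusted p = 3.74e-05).

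The Fanconi core complex is the ubiquitin ligase of the pathway, in which FANCL is the catalytic subunit and UBE2T the E2 enzyme that supplies the ubiquitin. Both genes of this catalytic pair fell. UBE2T had 268 and 218 normalized counts at 4 h, then 77.7 and 64.6 at 8 h (log2FC −1.76, standard error 0.18, edgeR adjusted p = 3.58e-07). FANCL had 148 and 124 at 4 h, then 49.1 and 32.3 at 8 h (log2FC −1.72, standard error 0.23, edgeR adjusted p = 8.87e-06). FANCC, an adaptor of the complex, had 151 and 160.5 at 4 h, then 47.0 and 62.1 at 8 h (log2FC −1.52, standard error 0.20, edgeR adjusted p = 8.72e-06). FANCA had 379 and 402 at 4 h, then 192 and 195 at 8 h (log2FC −1.01, edgeR adjusted p = 3.44e-06), and lay at −0.97 without replicate 2 of 4 h. In these 4 genes the groups did not overlap, and the 8 h level was between 29.4% and 49.6% of the 4 h level.

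Of the other core subunits, FANCF and FANCG fell, and FANCE, FANCM and FANCB did not pass the test. FANCF, a scaffold encoded by a single exon, went from 113 and 134 to 65.5 and 63.4 normalized counts (log2FC −0.94, standard error 0.20, edgeR adjusted p = 0.000994). FANCG, the core subunit with the highest level per length, went from 485 and 480.5 to 355 and 388 (log2FC −0.38, standard error 0.11, edgeR adjusted p = 0.00791). Without either 4 h library FANCG just missed the threshold, with edgeR adjusted p of 0.0547 and 0.0534. FANCE, which links the core to FANCD2, had 127 and 142 at 4 h, then 108 and 127 at 8 h, so that its groups met (log2FC −0.20, edgeR adjusted p = 0.394). FANCM, the translocase that anchors the core to DNA, had a log2FC of −0.46 (edgeR adjusted p = 0.122), and with 1 library left out it ran from −0.26 without replicate 2 of 8 h (edgeR adjusted p = 0.46) to −0.73 without replicate 1 of 8 h (edgeR adjusted p = 0.0395). FANCB, an X-linked subunit bound to FANCL, was low, with 66.4 and 36.3 at 4 h, then 27.6 and 32.3 at 8 h. Its log2FC of −0.78 (standard error 0.31) had an edgeR adjusted p of 0.0546 and passed without replicate 2 of 4 h (−1.15, edgeR adjusted p = 0.0181), without replicate 2 of 8 h (−0.89, edgeR adjusted p = 0.0374) and in 4 of the 8 alternatives in test, scaling, filter and block. Without replicate 1 of 4 h FANCB lay at −0.29 (edgeR adjusted p = 0.625), and without replicate 1 of 8 h at −0.67 (edgeR adjusted p = 0.133).

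FANCD2 and FANCI form the clamp (ID2) that receives the ubiquitin. FANCI had 999.7 and 1038 at 4 h, then 559 and 481 at 8 h (log2FC −0.97, standard error 0.10, edgeR adjusted p = 2.47e-07). FANCD2 had 253 and 247.5 at 4 h, then 120 and 109 at 8 h (log2FC −1.12, standard error 0.15, edgeR adjusted p = 1.02e-05). Both fell to about the same share, 51.2% and 45.9% of the 4 h level.

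The 3 genes for dissolution of joined molecules among the 37 all fell, while the nucleases that cut them split. TOP3A, also of the dissolution complex but counted here among the other pathway genes, did not pass (log2FC −0.25, edgeR adjusted p = 0.109). BLM, the helicase that dissolves double Holliday junctions, had 167 and 163 normalized counts at 4 h, then 48.1 and 43.5 at 8 h. It fell to 27.9% of its 4 h level (log2FC −1.84, standard error 0.20, edgeR adjusted p = 7.04e-07), which lay within 1 standard error of the values of UBE2T, RAD54L and FANCL. Its cofactors RMI1 and RMI2 fell less. RMI1 went from 186 and 146 to 102 and 78.3 (log2FC −0.87, edgeR adjusted p = 0.00133) and RMI2 from 372 and 356 to 224 and 186 (log2FC −0.82, edgeR adjusted p = 5.67e-05). Among the nucleases, EME1, the regulatory subunit of MUS81, had 185 and 189 at 4 h, then 68.5 and 59.6 at 8 h (log2FC −1.53, standard error 0.18, edgeR adjusted p = 2.45e-06). MUS81 itself had 370 and 343 at 4 h, then 365 and 303 at 8 h, with overlapping groups (log2FC −0.09, edgeR adjusted p = 0.599, and 0.04 without replicate 2 of 8 h). SLX4, the scaffold that gathers nucleases, had 129 and 141 at 4 h, then 101 and 117 at 8 h and did not pass (log2FC −0.32, edgeR adjusted p = 0.166). GEN1, a resolvase, fell by 0.74 on the log2 scale (edgeR adjusted p = 0.0064), with 198 and 171 at 4 h, then 138 and 79.5 at 8 h. Its replicates at 8 h stood apart, and it did not pass without replicate 2 of 8 h (−0.42, edgeR adjusted p = 0.0697) or without replicate 1 of 4 h (−0.64, edgeR adjusted p = 0.081), while it lay at −1.22 without replicate 1 of 8 h.

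Proteins that act together did not always move together in their transcripts. For 18 pairs of known partners, picked after the values had been seen, the ratio of raw counts was taken within each library, which removes any scaling between libraries; since reads depend on gene length, a ratio of 1 does not mark equal levels. Differences in log2FC exceeded 3 combined standard errors in 7 pairs. They are given as a description, without a test, since the pairs were chosen with the values known.

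The largest of these differences was that of BRCA1 and PALB2. BRCA1 had 1.82 and 1.91 reads per PALB2 read at 4 h, then 0.585 and 0.529 at 8 h, with both 8 h ratios far below the 4 h ones (difference in log2FC −1.74, combined standard error 0.17). PALB2 had 2.81 and 2.91 reads per BRCA2 read at 4 h, then 7.37 and 6.36 at 8 h. EXO1 had 0.459 and 0.452 reads per RBBP8 read at 4 h, then 0.18 and 0.138 at 8 h (difference −1.52, combined standard error 0.18). EME1 fell from 0.5 and 0.55 reads per MUS81 read to 0.188 and 0.197 (difference −1.45, combined standard error 0.22). FANCC per FANCE, another pair of core subunits, went from 1.19 and 1.13 to 0.434 and 0.49 (difference −1.32, combined standard error 0.27). BLM per RMI1 went from 0.899 and 1.12 to 0.47 and 0.556, and FANCA per FANCG from 0.781 and 0.836 to 0.542 and 0.503.

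In 9 of the other pairs the difference stayed within 2 combined standard errors, and in RAD54L per RAD54B (−0.66, combined standard error 0.27) and FANCB per FANCL (0.93, combined standard error 0.39) it lay between 2 and 3. UBE2T had 1.81 and 1.76 reads per FANCL read at 4 h, then 1.58 and 2.0 at 8 h (difference −0.05, combined standard error 0.29). NBN per RAD50 ran from 0.713 to 0.788 over the 4 libraries (difference 0.04, combined standard error 0.14). FANCD2 per FANCI was 0.253 and 0.238 at 4 h, then 0.214 and 0.227 at 8 h (difference −0.16, combined standard error 0.18). BRCA1 per BARD1 was 6.71 and 6.54 at 4 h, then 5.24 and 5.48 at 8 h (difference −0.32, combined standard error 0.26). In the FANCD2 and BRCA1 pairs just named, both 8 h ratios lay below both 4 h ones. The 8 h ratios lay apart from the 4 h ones in 13 of the 18 pairs. Whether differences of this size could be detected with these replicates was not tested.

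**Figure D3:**
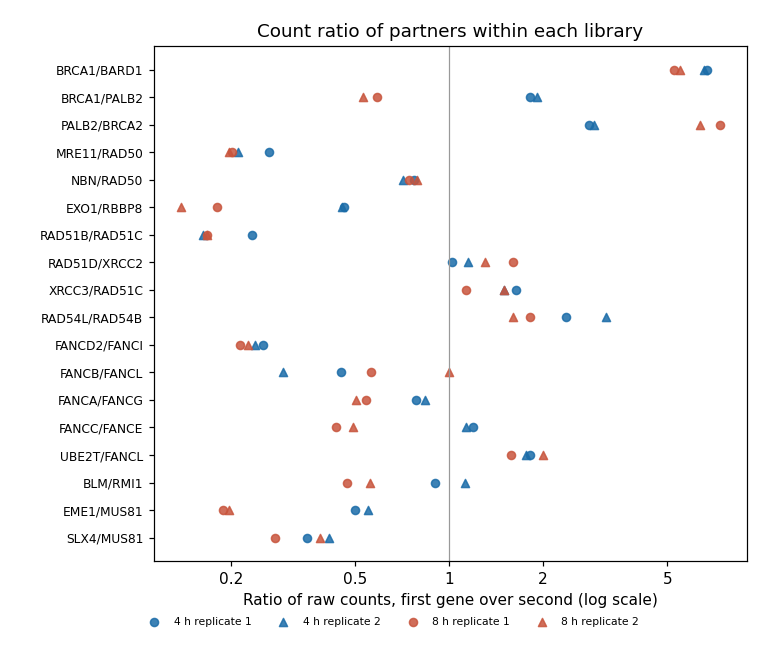
Ratio of raw counts of 18 pairs of partners (x axis, log scale, first gene over second) in each library; circles are replicate 1 and triangles replicate 2, blue at 4 h and red at 8 h, and the line marks a ratio of 1. The 8 h ratios of BRCA1/PALB2 and FANCC/FANCE lie well to the left of the 4 h ones, and those of UBE2T/FANCL and NBN/RAD50 overlap with them.

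Levels of different genes were compared per length, as RPKM on TMM-scaled library sizes with the exon length of the Ensembl canonical transcript. At 4 h the highest mean RPKM were those of UBE2T (28.9), RMI2 (26.6), FANCI (22.5) and RBBP8 (22.3), and the lowest was that of BRCA2 (1.02). The order of the first 4 is not firm, since UBE2T had 31.9 and 26.0 and RMI2 27.2 and 26.0, and the values of FANCI and RBBP8 overlapped. At 8 h RBBP8 led with a mean RPKM of 19.7, followed by FANCG (15.2), RMI2 (15.0), MUS81 (14.7) and FANCI (11.5), while UBE2T stood at 8.46. The libraries of FANCG, RMI2 and MUS81 overlapped at 8 h, so their order is not firm either. BRCA2 stayed lowest, at 0.466. The mapping dropped reads across splice junctions, so genes with many short exons, such as FANCD2 and FANCA with 44 and 43 exons, read low on this scale.

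The 37 genes range in length from 3.29 kb (FANCF) to 910 kb (RAD51B), and TOP2 acts on DNA that transcription twists. Length here is the span between the outermost annotated ends. For some genes, such as RBBP8, FANCC and RAD52, the RefSeq start lay well inside this span, so the stretch transcribed in these cells may be shorter. The span of BRCA1 reaches to its far upstream start. Medians were close across gene lengths so defined. Among the 10 genes under 30 kb the median log2FC was −0.80 and 8 fell, among the 16 genes of 30 to 90 kb it was −0.86 and 12 fell, and among the 11 genes over 90 kb it was −0.95 and 8 fell. Spearman's rho of log2FC with length was −0.11 across the 37 genes, and with the mean normalized count at 4 h it was 0.12. These are across genes of the same 4 libraries, so genes are not independent replicates. The 4 h counts also enter log2FC, so noise shared by both affects the rho with the count. The 37 genes had rather few reads, with a median of 185 normalized counts at 4 h against 294 for all retained genes. With a correction of each library for the trend of its values over mean log2-CPM, 27 genes fell and the median log2FC was −0.78.

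**Figure D4:**
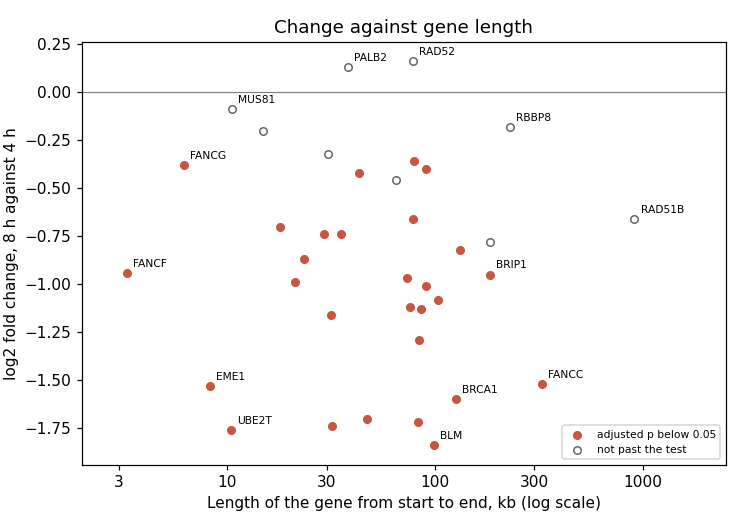
Log2FC of the 37 genes (y axis, 8 h against 4 h) against the length of the gene from start to end (x axis, kb, log scale); filled points have an adjusted p below 0.05. EME1 and UBE2T, near 10 kb, and FANCC, at 328 kb, lie at similar depths, between −1.76 and −1.52. Other short and long genes lie near 0, such as MUS81 (10.5 kb, −0.09) and RBBP8 (228 kb, −0.18). Lengths are annotated spans, and the RefSeq starts of FANCC and RBBP8 lie well inside theirs.

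Some of these genes share exon bases with a neighbour, and whether the counting used the strand is not given in the sources used here. In 7 genes more than 10% of the exon bases were shared. RAD54L shares 26.2% with LRRC41 on the other strand, whose log2FC was 0.50 (edgeR adjusted p = 6.44e-05), opposite to that of RAD54L. The neighbours of XRCC3 (KLC1, −0.09), FANCA (ZNF276, 0.16), FANCL (VRK2, −0.08) and EME1 (LRRC59, −0.13), all on the other strand, did not pass the test. RAD54B shares 65.5% with FSBP on the same strand, which was at 0 in all 4 libraries, so their reads cannot be told apart. For RAD50, 91.0% is shared with genes outside the count tables. BRCA1, FANCD2, MRE11, RAD51AP1, RAD52 and RBBP8 have annotated pseudogenes, where the single-position rule of the mapping can remove reads.

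The same comparison was made for 58 other genes of these pathways, of which 54 were retained. Of these, 23 fell (42.6%, against 18.8% of all retained genes), 2 rose (against 19.9%) and 29 did not pass the test, with a median log2FC of −0.37. The largest falls among genes with at least 50 normalized counts were those of UHRF1, a chromatin protein that also senses crosslinks (171 and 198 at 4 h, 61.4 and 60.9 at 8 h, log2FC −1.59, edgeR adjusted p = 2.23e-06), SFR1, a recombinase cofactor (log2FC −1.29, edgeR adjusted p = 5.55e-05), and PARPBP, an inhibitor of recombination (log2FC −1.28, edgeR adjusted p = 5.56e-05). The genes that rose were REV3L, the catalytic subunit of translesion polymerase zeta (395 and 371 at 4 h, 549 and 552 at 8 h, log2FC 0.52, edgeR adjusted p = 0.000489), and WDR48, a cofactor of the FANCD2 deubiquitinase (log2FC 0.29, edgeR adjusted p = 0.0208). REV3L passed in all 12 alternatives, and WDR48 in 6 of them. WDR48 did not pass without either 4 h library or without replicate 1 of 8 h.

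Non-homologous end joining, which rejoins breaks without a template in any phase of the cell cycle, moved less. Of 19 genes, 18 were retained, with a median log2FC of −0.16. Of these, 5 fell (27.8%, against 18.8% of all retained genes), 1 rose (against 19.9%) and 12 did not pass. The largest falls were those of XRCC4 (−0.72), which holds the ligase and did not pass without replicate 1 of 4 h or with DESeq2, CYREN (−0.69), an inhibitor of end joining, and TP53BP1 (−0.65), which shields ends from resection (edgeR adjusted p = 0.0108, 5.31e-05 and 2.57e-05). APLF, an accessory factor, rose by 0.57 (edgeR adjusted p = 0.0312) and did not pass without replicate 1 of 4 h, replicate 2 of 4 h or replicate 1 of 8 h. Without replicate 1 of 4 h, 3 end-joining genes fell. Of 42 replication genes, all were retained, 38 fell and 4 did not pass, with a median log2FC of −0.81 and the largest falls in CLSPN (−1.72), MCM10 (−1.70) and GINS3 (−1.65). In share of genes called lower and in median, the 37 HR and Fanconi genes thus stood nearer to the replication genes than to end joining. This did not hold for the 54 other genes of these pathways. Of those, 42.6% fell, with a median log2FC of −0.37, which was nearer to end joining. The difference between lists was not tested, and 18.8% of all retained genes were called lower.

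**Figure D5:**
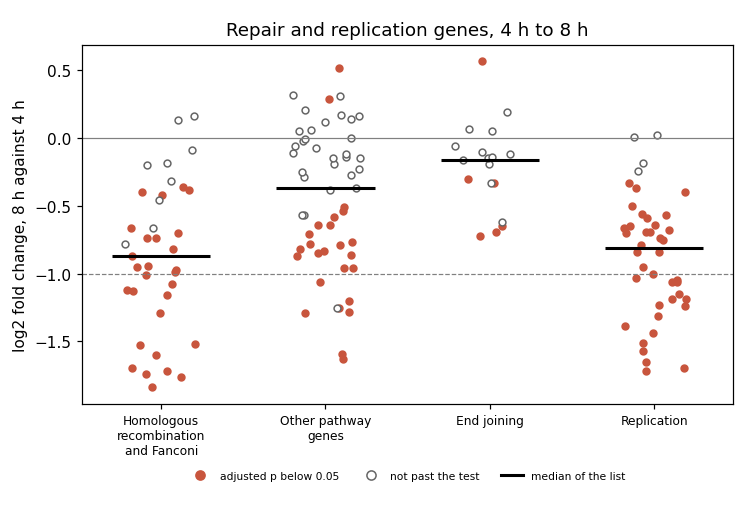
Log2FC (y axis, 8 h against 4 h) of the 37 HR and Fanconi genes, 54 other pathway genes, 18 end-joining genes and 42 replication genes; each point is a gene, filled where its adjusted p was below 0.05, black bars are list medians and the dashed line marks −1. The medians are −0.87, −0.37, −0.16 and −0.81.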

How the data were processed

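Raw counts per gene were deposited by the authors for 4 libraries of RPE-1 cells. Per the labels and the study's methods, TruSeq Stranded mRNA libraries were sequenced as single reads, filtered with FASTQC and mapped to hg19 with Bowtie 1.2.0, and reads with a single genomic position were kept. The gene annotation and counting tool are not given in the sources used here. NCBI Gene identifiers took their symbols from RefSeq (assembly GRCh38.p14, names only) and their positions from GENCODE on GRCh37, the assembly of hg19. All 37 genes were found in both.

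Only genes above 1 CPM in 2 or more libraries were tested (retained), counts were TMM-normalized, and 8 h was compared with 4 h in all 4 libraries with the quasi-likelihood test of edgeR 4.0.16 (R 4.3.3), with time as the only term. Normalized counts are counts divided by the effective library size and multiplied by its mean over libraries. The standard error of log2FC is its size over the square root of F. Limma-Voom (limma 3.58.1), which the study used, DESeq2 1.42.0, other scalings and filters, a block for the replicate number, glmTreat and leaving out each library were alternatives. The tests were tried on simulated counts.

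The members and lists were chosen with earlier results of these data known. Values per library are given for DEGs, for genes that rose and for the best expressed gene of each role, and for other members where they help. Of the other lists, the 3 largest falls and rises past the test with at least 50 normalized counts are named. 1 gene of the other pathway list is not reported here.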

Additional observations from a re-analysis of the deposited data

How the results depend on the processing

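Across 8 alternatives in test, scaling, filter and block, between 26 (DESeq2) and 31 (library size alone) of the 37 genes fell, and with 1 library left out between 23 and 29. None rose in any of them. Over all genes, 1503 (DESeq2) to 3289 (library size alone) were called lower in these alternatives. Library size alone gave 3289 lower and 1698 higher, against 2367 and 2500, and the trend correction gave 338 DEGs lower and 263 higher, against 487 and 182. The time left with 1 library is then assumed to vary like the other. Of the 28 genes that fell, 22 passed in all 12 of these alternatives, and MRE11, NBN, RAD51C, RAD51D, FANCG and GEN1 did not in at least 1. Of the 14 DEGs, 11 were DEGs in all 12, while BRCA2 (−0.97), RAD54B (−0.92) and FANCA (−0.97) stopped short of a log2FC of −1 with the trend correction. The median log2FC ran from −0.97 (library size alone, which moved the median of all genes to −0.108) to −0.78 (trend correction), and from −0.98 to −0.79 with 1 library left out. With glmTreat, which asks whether a change exceeds a log2FC of 1, 5 genes passed (BRCA1, RAD54L, EXO1, UBE2T and BLM), of 58 lower and 26 higher among all 12559. MUS81 ran from −0.23 to 0.04 with 1 library left out, turning above 0 without replicate 2 of 8 h (edgeR adjusted p = 0.864). The 7-letter E2F forms, added after the 8-letter ones, moved the count of promoters from 2 to 10.

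Among the other pathway genes, 1 rose with library size alone, with the trend correction and with DESeq2, and 4 with the replicate block, against 2. With 1 library left out, 1 to 3 rose. Among end-joining genes 0 rose with library size alone and with DESeq2, against 1, and 0 to 1 with 1 library left out, while 3 to 6 fell, against 5. The cause was not tested.

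With the replicate number as a block, 29 of the 37 genes fell, FANCB being the addition, and 14 were DEGs. Same-numbered libraries deviated from their group means with r = 0.048 over all retained genes and r = 0.114 over the 9396 genes with a mean count of at least 100. With only 2 numbers, and no label tying them to a shared culture or day, the libraries were not treated as paired.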
